A study of Brassica oleracea var. italica with 18 samples.

Results

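LOX2 encodes a lipoxygenase of the chloroplast. It adds oxygen to linolenic acid, which opens the route to jasmonate. The array has 43603 probes, and among the 2157 with an Arabidopsis locus in the tables of the study used here, 4 were annotated to this gene (AT3G45140): A_46_P040601, A_46_P229914, A_46_P226369 and A_46_P235329. Each targeted a different Brassica sequence, named EV101793, TA26071_3708, CX189392 and CX195887 in the same order, and each had 1 spot per array. The probes were chosen by their annotation in lists that the study had selected on values of these same arrays. A_46_P040601, A_46_P229914 and A_46_P226369 came from a co-expression group of probes, called the brown module, which the study picked out for its relation to temperature. Its probes had first passed a filter on the difference between the lines. A_46_P235329 came from a list of probes with higher intensity in the heat-tolerant line. The line differences of all 4 probes, the temperature differences of the 3 brown probes and the steps of A_46_P235329 from 15 °C are therefore given as a description with no test.

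The arrays held RNA from shoot meristems of 2 broccoli lines, a heat-tolerant inbred line (HT) and a heat-sensitive line (HS). Both lines were raised at 22 °C, with 10 days of germination and 30 days in soil, under 18 h of light and 6 h of dark. They were then moved to 15, 22 or 27 °C, for 2 weeks by the sample labels, while the methods give a shorter treatment. Each line and temperature had 3 arrays, so that there were 6 groups and 18 arrays in all. Each line is a single genotype, and the sources do not settle whether an array held the RNA of a single plant or of a pool, so the spread between arrays may be partly technical.

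In the jasmonate pathway, lipoxygenase, allene oxide synthase and allene oxide cyclase act in the chloroplast, and reductases such as OPR3 and beta-oxidation in the peroxisome finish the hormone. The conjugate of jasmonate with isoleucine is bound by the receptor COI1, and the JAZ repressors are then degraded. In Arabidopsis, LOX2 is an abundant leaf gene that is itself induced by jasmonate and by wounding. Brassica genomes carry several copies of most Arabidopsis genes, and a probe may see one copy or several.

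Values below are log2 fluorescence intensities, quantile-normalized between arrays. On this scale a difference of 1 is a doubling. The scanner software marked 63.9% to 69.8% of the probes of an array as well above background. No array stood apart from its group over all probes (mean correlation with the other arrays of its group 0.988 to 0.992). Few marker genes of the tissue had a named probe. The probe of the meristem gene LFY was well above background on all 18 arrays (group means 8.11 to 8.69), and so was the probe of the leaf gene LHCA3 (group means 11.91 to 12.69). These were 1 of 7 meristem and 1 of 10 leaf genes looked for. The arrays at 22 and 27 °C shared 3 slides, each with both lines, and the 15 °C arrays of both lines lay on the other 2 of the 5 slides. The step from 15 °C to 22 or 27 °C and the change of slide therefore cannot be told apart, while HT and HS were compared on the same slides at every temperature.

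A_46_P040601 and A_46_P229914 were low in one group, the HT meristems at 15 °C. A_46_P040601 read 3.83, 5.64 and 6.35 on the 3 HT arrays at 15 °C. On the HS arrays at 15 °C it read 8.35, 8.69 and 8.50. The groups did not overlap, and the lowest value, on replicate 1, was the only reading of any LOX2 probe that was not well above background. In HT the probe read 8.08, 8.09 and 7.78 at 22 °C and 8.77, 8.63 and 9.15 at 27 °C. In HS it read 8.49, 8.56 and 8.97 at 22 °C and 8.66, 8.85 and 8.82 at 27 °C. The HS groups overlapped with each other at all temperatures, whereas each HT group lay above the cooler one.

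A_46_P229914 gave the same picture on another target sequence. It read 10.19, 12.05 and 12.63 on the HT arrays at 15 °C and 14.54, 14.98 and 14.72 on the HS arrays. In HT it read 14.57, 14.55 and 14.04 at 22 °C and 15.23, 15.15 and 15.40 at 27 °C. In HS it read 14.86, 14.99 and 15.02 at 22 °C and 15.17, 15.39 and 14.83 at 27 °C. Unlike A_46_P040601, this probe was well above background on all 18 arrays. Here too replicate 1 was the lowest of the HT arrays at 15 °C, as it was for all 4 probes.

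**Figure D1:**
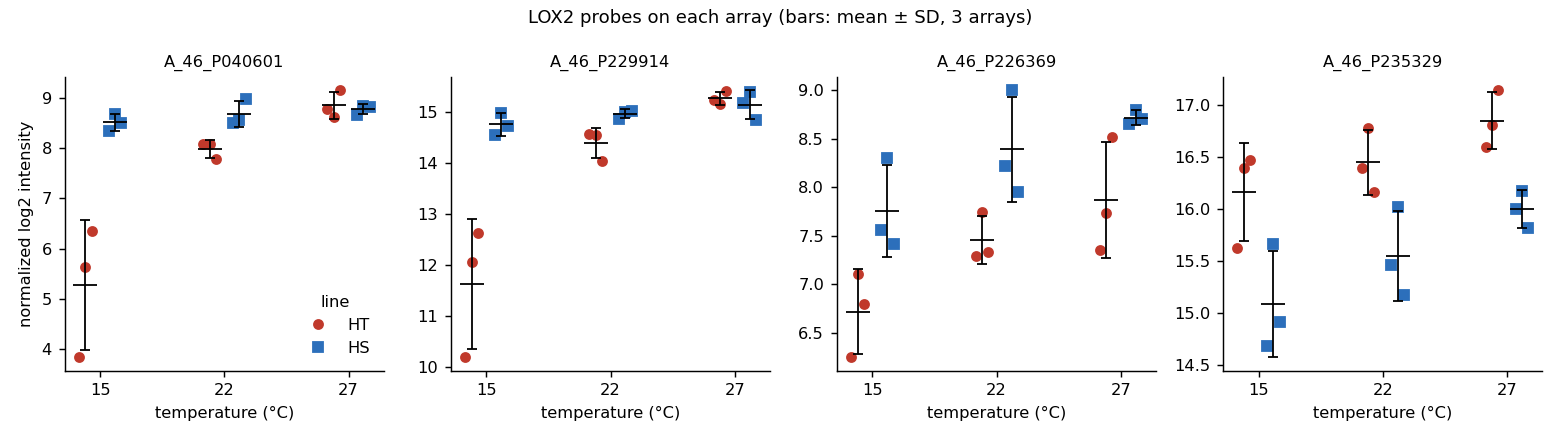
Normalized log2 intensity (y axis) of each LOX2 probe on the 18 arrays, by temperature (x axis, °C) and line; each point is an array, in the order of the replicate numbers, and black bars are the mean ± SD of 3 arrays. A_46_P040601 and A_46_P229914 are low in HT at 15 °C (means 5.27 and 11.62), while A_46_P235329 is higher in HT than in HS at each temperature; the y axes differ between panels.

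The HT deficit of both probes at 15 °C was close to 9-fold. A_46_P040601 averaged 5.27 ± 1.30 (SD, n = 3) in HT against 8.51 ± 0.17 in HS, a difference of -3.24 (SE 0.44), or 9.43-fold. A_46_P229914 averaged 11.62 ± 1.28 in HT against 14.75 ± 0.22 in HS, a difference of -3.13 (SE 0.43), or 8.74-fold. Both SEs rest on 1 spread taken over all groups and are too small for the scatter of HT at 15 °C. Without HT replicate 1 at 15 °C these differences were -2.52 and -2.41, which is 5.72-fold and 5.31-fold. With a background correction that lifts dim spots (normexp with an offset of 50), the difference of A_46_P040601 was -1.93. Within the slide that held replicates 1 and 2 the differences were -3.78 and -3.64, and within the slide that held replicate 3 they were -2.15 and -2.10.

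The deficit was smaller at 22 °C, and at 27 °C the lines overlapped. A_46_P040601 differed between HT and HS by -0.69 (SE 0.44) at 22 °C, and all 3 HT arrays were below all 3 HS arrays. At 27 °C the difference was 0.08. A_46_P229914 differed by -0.57 (SE 0.43) at 22 °C, again without overlap, and by 0.13 at 27 °C. Fitted without HT replicate 1 at 15 °C, the SE of both 22 °C differences was 0.19. The sign of the 27 °C values depended on single arrays: without HT replicate 3 the difference of A_46_P040601 was -0.07, and without HS replicate 3 that of A_46_P229914 was -0.02.

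Within HT, A_46_P040601 was 2.71 (SE 0.44) higher at 22 °C than at 15 °C and 3.58 higher at 27 °C, which is 6.54-fold and 11.9-fold. A_46_P229914 was 2.77 (SE 0.43) and 3.64 higher, which is 6.80-fold and 12.5-fold. Without HT replicate 1 at 15 °C, where A_46_P040601 was not well above background, the steps from 15 to 22 °C were 1.99 and 2.05, or 3.97-fold and 4.13-fold. Those from 15 to 27 °C were then 2.86 and 2.92, or 7.24-fold and 7.57-fold. At 15 °C in HT, A_46_P040601 was measured above background on 2 of 3 arrays. Within HS the steps from 15 to 27 °C were 0.26 (SE 0.44) and 0.38 (SE 0.43). The fit takes 1 spread over all groups, and HT at 15 °C was the most scattered. The SEs of the HT steps from 15 °C are thus too small and those of the HS steps too large. Fitted without HT replicate 1 at 15 °C, the SE of both HS steps was 0.19. Between 22 and 27 °C, where the arrays shared slides, A_46_P040601 was higher at 27 °C on each slide in HT (0.70, 0.54 and 1.36), and A_46_P229914 was too (0.67, 0.60 and 1.36). In HS both probes were higher at 27 °C on 2 slides and lower on the third.

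The group means of A_46_P040601 stood in the order HT at 15 °C, HT at 22 °C, HS at 15, 22 and 27 °C and HT at 27 °C. Only the lowest and the next lowest group were separated from their upper neighbour. A_46_P229914 had the same order, but its HT arrays at 22 °C overlapped with the HS arrays at 15 °C.

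A_46_P226369 was lower in HT than in HS at every temperature, by nearly the same amount, and its means were higher at each higher temperature in both lines. In HT it read 6.25, 7.11 and 6.79 at 15 °C, 7.30, 7.74 and 7.33 at 22 °C, and 7.35, 7.73 and 8.52 at 27 °C. In HS it read 7.56, 8.30 and 7.41 at 15 °C, 8.22, 8.99 and 7.95 at 22 °C, and 8.65, 8.79 and 8.70 at 27 °C. The lines did not overlap at any of the 3 temperatures.

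The HT minus HS difference of A_46_P226369 was -1.04 at 15 °C, -0.93 at 22 °C and -0.85 at 27 °C (SE 0.34 each), or 2.06-fold, 1.91-fold and 1.80-fold lower. At 22 and 27 °C HT was below HS within each shared slide, by 0.18 to 1.30 in size. Between 15 and 27 °C the probe differed by 1.15 in HT and by 0.96 in HS (SE 0.34), without overlap in either line. In the order of its group means, HT at 15 °C was separated from HT at 22 °C, and all other neighbours overlapped.

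A_46_P235329 had the opposite line difference: it was brighter in HT. In HT it read 15.62, 16.39 and 16.48 at 15 °C, 16.40, 16.78 and 16.17 at 22 °C, and 16.60, 16.81 and 17.14 at 27 °C. In HS it read 14.68, 15.66 and 14.91 at 15 °C, 15.46, 16.02 and 15.17 at 22 °C, and 16.003, 16.18 and 15.82 at 27 °C. All 3 HT arrays were above all 3 HS arrays at 22 and 27 °C, and at 15 °C HT was higher in 8 of the 9 pairs of arrays. No spot of this probe was saturated.

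The HT minus HS difference of A_46_P235329 was 1.08 at 15 °C, 0.90 at 22 °C and 0.85 at 27 °C (SE 0.30 each), which is 2.11-fold, 1.86-fold and 1.80-fold. The study's list required a fold change of at least 2 at one or more temperatures. Within the shared slides HT was higher on each slide, by 0.76 to 0.99 at 22 °C and by 0.59 to 1.32 at 27 °C. Among all probes, 11.4% were called higher and 9.71% lower in HT at 15 °C by limma at an adjusted p under 0.05. The shares were 11.0% and 9.40% at 22 °C, and 10.6% and 9.12% at 27 °C.

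**Figure D2:**
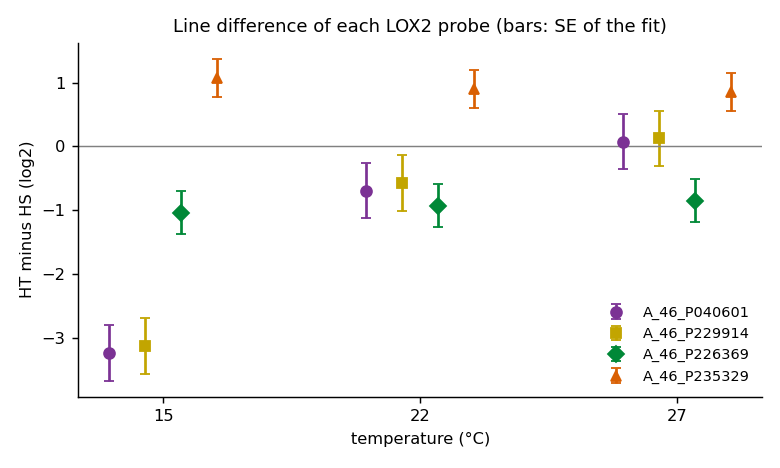
HT minus HS difference (y axis, log2) of the 4 LOX2 probes at each temperature (x axis, °C). Points are differences of group means over 3 arrays each. Bars are the SE of the fit, which takes 1 spread over all groups and is too small for A_46_P040601 and A_46_P229914 at 15 °C. The values of A_46_P040601 and A_46_P229914 go from -3.24 and -3.13 at 15 °C to 0.08 and 0.13 at 27 °C, while A_46_P226369 stays at -1.04 to -0.85 and A_46_P235329 at 0.85 to 1.08.

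The choice of A_46_P235329 compared the lines and not the temperatures, but it rested on values of these arrays. In the values used here the probe reached 2-fold only at 15 °C, so its steps from 15 °C are given with no test. In the deposited log2 values the line difference was 1.03 at 22 °C too. The arrays at 22 °C may thus also have entered the choice, and the p-values between 22 and 27 °C below are not independent of it. In HS the probe was 0.92 (SE 0.30) higher at 27 °C than at 15 °C, with all 3 arrays at 27 °C above all 3 at 15 °C. In HT the same step was 0.69 (SE 0.30), also without overlap, and it was 0.42 without HT replicate 1 at 15 °C. From 15 to 22 °C the steps were 0.47 in HS and 0.28 in HT, and the groups overlapped in both lines. The HT step was 0.01 without HT replicate 1 at 15 °C. Whether the temperature steps differ between the lines was not tested.

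Between 22 and 27 °C limma called no difference of this probe in either line. The step was 0.40 in HT (adjusted p = 0.678, unadjusted p = 0.199) against 0.45 in HS (adjusted p = 0.594, unadjusted p = 0.154), and the methods' t-test passed in neither line. On each of the 3 shared slides the 27 °C array was the higher in both lines, by 0.03 to 0.97. The exact two-sided sign-flip p over the 3 slides was 0.25 in each line, the smallest that 3 slides can give. The mean over both lines was 0.42, and the pairs of a slide went together: they were 0.97 and 0.65 on slide 3 and 0.03 and 0.16 on slide 2. With the pairs of a slide flipped together, a comparison chosen after the values had been seen, the exact p was again 0.25. That is again the smallest that 3 slides can give, so the flips cannot decide whether the step is there.

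The leaf marker ran against A_46_P226369 and A_46_P235329. Both marker probes came from modules built on these same arrays. The LHCA3 probe was in the dark-green module, which the study found negatively correlated with temperature. The LFY probe was in the brown module, like A_46_P226369. Their course over temperature is thus partly built in by that choice. The LHCA3 probe had a difference between 27 and 15 °C of -0.78 in HS and of -0.26 in HT (SE 0.25 each). Its r within HS was -0.851 with A_46_P226369 and -0.788 with A_46_P235329, and within HT -0.676 and -0.688. The LFY probe, whose difference between 27 and 15 °C was 0.58 in HS and -0.04 in HT, had r of 0.745 and 0.721 with these probes within HS and 0.294 and 0.334 within HT. With A_46_P040601 and A_46_P229914 the LHCA3 probe had r of -0.402 to -0.198 within the lines. The part of tissue makeup in the LOX2 values was not tested, and fewer cells of a type cannot be told apart from less RNA per cell.

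Far fewer probes moved between 22 and 27 °C than between 15 and 27 °C. From 15 to 27 °C, calls upward made up 8.86% of all probes and calls downward 9.25% in HT, and 7.95% and 8.03% in HS. From 15 to 22 °C, the upward share was 5.06% and the downward share 5.15% in HT, and 3.03% and 3.22% in HS. From 22 to 27 °C, the shares were 1.09% and 0.805% in HT, and 1.26% and 0.949% in HS.

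How far the 4 probes agree was read from their correlation over the 18 arrays, which share groups and slides, so that it is a description. A_46_P040601 and A_46_P229914 went together with Pearson's r of 0.993 and Spearman's rho of 0.901. Without the 2 arrays farthest from the median of A_46_P040601, both from HT at 15 °C, r was 0.969. Within HT r was 0.998 over 9 arrays, and within HS, where both probes moved little, it was 0.658. The deviations of single arrays from their group means correlated at 0.953, and no other of the 29609 probes compared deviated so closely with A_46_P040601. This value leaned on the scattered HT arrays at 15 °C: without them it was 0.621.

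A_46_P226369 followed this pair less closely, with r of 0.762 to A_46_P040601 and 0.765 to A_46_P229914 (rho 0.756 and 0.715). Without the same 2 arrays r was 0.671 and 0.670. At 22 and 27 °C alone, over 12 arrays, r was 0.566 and 0.528.

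A_46_P235329 had correlations near 0 with the other probes over all 18 arrays. Its r was -0.01 with A_46_P040601, 0.05 with A_46_P229914 and 0.03 with A_46_P226369 (rho 0.04, 0.25 and -0.08). Within HT the same 3 values were 0.822, 0.818 and 0.904, and within HS 0.463, 0.815 and 0.962. Without HT replicate 1 at 15 °C the HT values were 0.588, 0.581 and 0.831.

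A_46_P226369 and A_46_P235329 thus differed in opposite directions between the lines while going together within each line. Their deviations from the group means correlated at 0.888, and at 0.893 without the HT arrays at 15 °C. Ranked by this deviation, A_46_P235329 was number 121 of 29609 probes compared with A_46_P226369. With A_46_P040601 its deviations correlated at 0.556, where 918 probes were as high or higher, and with A_46_P229914 at 0.668, where 240 were.

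**Figure D3:**
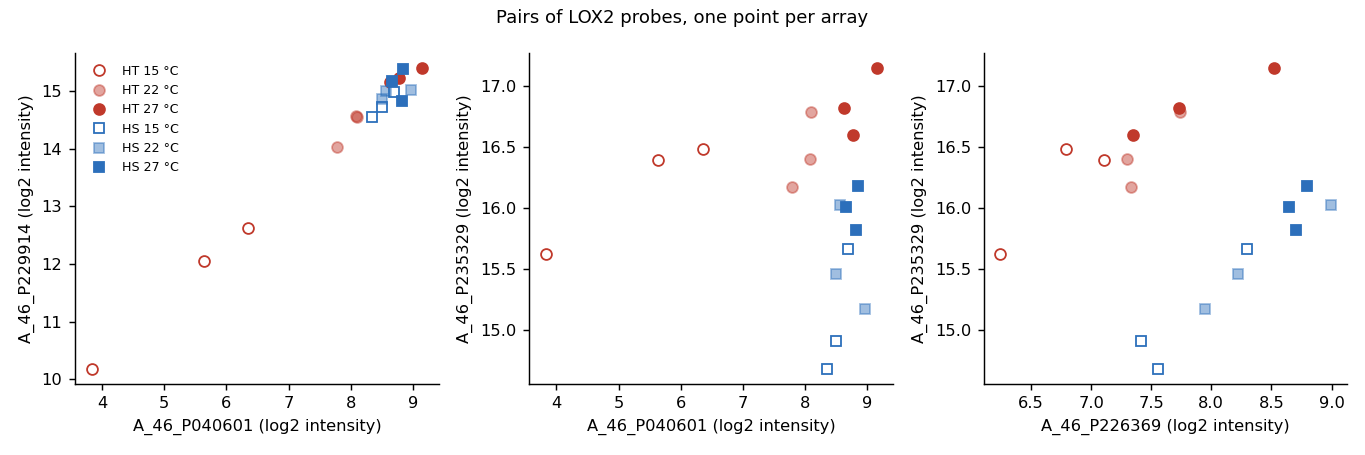
Log2 intensity of 3 pairs of LOX2 probes plotted against each other, one point per array; circles are HT and squares HS, open at 15 °C, pale at 22 °C and filled at 27 °C. A_46_P040601 and A_46_P229914 lie on a single line (r 0.993), whereas A_46_P226369 and A_46_P235329 form a separate rising line for each broccoli line (r 0.904 in HT and 0.962 in HS).

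**Figure D4:**
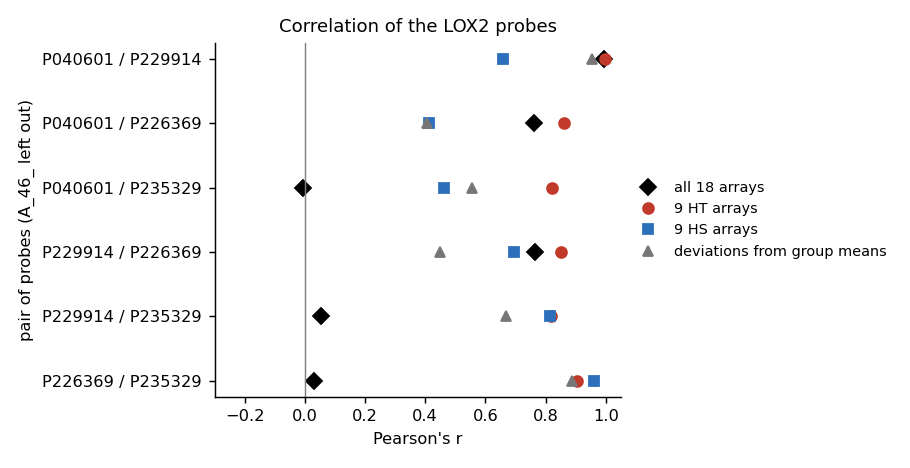
Pearson's r (x axis) of each of the 6 pairs of LOX2 probes (y axis) over all 18 arrays, over the 9 arrays of each line, and for deviations from the group means. The 3 pairs with A_46_P235329 lie at -0.01 to 0.05 over all arrays and at 0.463 to 0.962 within the lines.

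Disagreement between probes of one Arabidopsis gene was not peculiar to LOX2 among the listed probes. Besides LOX2, 322 Arabidopsis genes had more than 1 probe in the tables of the study, which made 565 pairs with a median r of 0.943, and 53 of these pairs had an r of 0.1 or less. Of the 77 pairs with one probe in a module and the other only in a line list, as for A_46_P235329 and the brown probes, 36 had an r of 0.1 or less and the median was 0.231. The study had sorted these probes on the same arrays, so a low r of such pairs is partly built in.

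Other probes that follow LOX2 were ranked by Pearson's r over the 18 arrays, among 29606 probes that were well above background on every array of at least 1 group. Only 2 probes reached r of 0.9 with A_46_P040601 and 4 with A_46_P229914, while 23 and 20 had r of -0.9 or lower. These high values lean on the HT arrays at 15 °C. Without HT replicate 2 at 15 °C no probe reached 0.9 with either, and without HS replicate 2 at 15 °C there were 8 and 13. Without HT replicate 1 at 15 °C the probes at -0.9 or lower numbered 3 for each.

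The closest probes to A_46_P040601 were A_46_P290208 (r 0.912) and A_46_P229329 (r 0.908), both without a gene name in the sources used here. They were followed by A_46_P020071 for AT5G54530, a DUF538 protein (r 0.892), A_46_P328130 for AT3G44990, a xyloglucan endotransglycosylase of the cell wall (r 0.889), and A_46_P077341 (r 0.884). A_46_P010466 for AT3G06035, a GPI-anchored membrane protein, came sixth (r 0.883). For the nearest 5, r was 0.901 to 0.990 within HT but 0.168 to 0.687 within HS. The xyloglucan endotransglycosylase probe had means of 5.11, 6.07 and 6.94 in HT at 15, 22 and 27 °C and of 6.42, 6.62 and 7.11 in HS. Its HT minus HS difference at 15 °C, -1.31, had the sign of that of the LOX2 probe.

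For A_46_P229914 the order was A_46_P141419 (r 0.906), A_46_P229329 (0.903), the xyloglucan endotransglycosylase probe (0.902), the DUF538 probe (0.902) and A_46_P082946 for AT5G67110, a bHLH transcription factor (0.899). Within HT these 5 had r of 0.930 to 0.964, and within HS 0.355 to 0.745. Of the 100 nearest probes of each, A_46_P040601 and A_46_P229914 shared 72.

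At the other end, A_46_P040601 and A_46_P229914 shared 85 of their 100 most opposite probes. For the 3 lowest of each, r was -0.97 to -0.95 within HT but only -0.425 to -0.16 within HS. A_46_P098994 for AT2G40270, a protein kinase, had the lowest r with A_46_P040601 (-0.955) and with A_46_P229914 (-0.951). Its mean was 8.74 in HT at 15 °C and 6.91 to 7.16 in all other groups. A second probe of that gene, A_46_P374920, had r of -0.941 with A_46_P229914, with means of 11.61 in HT at 15 °C and 9.65 to 10.14 elsewhere. A_46_P030446 for AT5G63140, the purple acid phosphatase PAP29, had r of -0.949 with A_46_P040601, and A_46_P038831, with no name here, had -0.949 and -0.946.

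A_46_P226369 had more company: 83 probes reached r of 0.9 and 134 had -0.9 or lower. Without HT replicate 1 at 15 °C these were 41 and 78, and without HT replicate 3 at 27 °C or HS replicate 2 or 3 at 15 °C the first count was 142 to 153. Nearest were A_46_P300130 for AT3G10880, a protein of unknown function (r 0.950), A_46_P165649 for AT5G13000, a callose synthase (0.946), A_46_P073736 (0.946), A_46_P279643 (0.945) and A_46_P107504 (0.941). A_46_P172839 for AT2G23150, a metal transporter of the NRAMP family, was sixth (0.941). The callose synthase probe had means of 11.62, 12.17 and 12.37 in HT and of 12.28, 12.71 and 12.73 in HS, lower in HT and lowest at 15 °C like the LOX2 probe. The 3 most opposite probes were A_46_P355635 (-0.971), A_46_P241679 (-0.963) and A_46_P206449 (-0.958), none with a name here.

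A_46_P235329 had 77 probes at r of 0.9 or more and 32 at -0.9 or lower. The first count was 128 without HT replicate 1 at 15 °C and 50 without HT replicate 3 at 27 °C, and the second 57 and 19; the second was also 21 without HS replicate 1 at 15 °C and 52 without HS replicate 2 at 27 °C. A_46_P143569, a probe without a name in the sources used here, followed it with r of 0.976. Whether it belongs to another gene or to LOX2 itself is not settled by these sources. Its means were 16.07, 16.43 and 16.73 in HT and 15.27, 15.75 and 15.999 in HS, and its deviations from the group means correlated with those of the LOX2 probe at 0.958. The next were A_46_P147644 (0.953), A_46_P045056 (0.950), A_46_P262643 (0.947) and A_46_P147789 (0.947), also unnamed. The best ranked with an entry were A_46_P095846, a Brassica napus cDNA, at number 16 (0.928), and A_46_P344060 and A_46_P377485, both for AT1G58270 (ZW9), at numbers 23 and 27 (0.924 and 0.920). The most opposite were A_46_P333715 (-0.945), A_46_P064816 (-0.943) and A_46_P007426 (-0.934).

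The 100 nearest probes fell into different lists of the study. Brown module probes made up 68 of them for A_46_P040601, 74 for A_46_P229914 and 58 for A_46_P226369, and none for A_46_P235329, where 22 came from the list of probes higher in HT. Brown probes were 3.00% of the probes compared. The module was built from correlations over these same arrays, so this share is no independent evidence. A_46_P226369 shared 15 of its 100 nearest probes with A_46_P040601 and 11 with A_46_P229914, and A_46_P235329 shared none with any of the others. Centred on their own means, the 100 nearest probes of A_46_P040601 averaged -0.86 in HT at 15 °C and 0.02 in HS at 15 °C. Those of A_46_P235329 averaged 0.12 and -0.69.

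For the rest of the pathway, a list of 47 jasmonate genes was matched by locus to the study's tables, which hold only probes selected on these arrays. Apart from LOX2, 8 probes of 7 genes were found, all well above background on all arrays. With limma, 6 of the 8 were called between 27 and 15 °C in HT, 4 higher and 2 lower at 27 °C, beside 8.86% and 9.25% of all probes and 29.8% and 23.5% of the 3122 listed probes. In HS 4 were called, 2 higher and 2 lower, beside 7.95% and 8.03% of all probes and 24.5% and 22.3% of the listed ones. Between 22 and 15 °C, 3 were called in each line, 2 higher and 1 lower, beside 5.06% and 5.15% of all probes in HT and 3.03% and 3.22% in HS. Since the probes were listed for differences on these arrays, nothing is read from these counts, and single genes are given with no p.

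Between the lines, 1 of the 8 was called higher and 1 lower in HT at 15 °C, where 11.4% and 9.71% of all probes were. At 22 and at 27 °C 2 were called higher and 0 lower. Of all probes 11.0% and 10.6% were higher and 9.40% and 9.12% lower. Of the listed probes 41.4% and 41.3% were higher and 10.6% and 9.58% lower. At 22 °C no line call was left without HT replicate 1 at that temperature, and 1 was left without HT replicate 2, HS replicate 1 or HS replicate 2. At 27 °C 1 was left without HT replicate 1, and at 15 °C there were 4 without HS replicate 2 and 1 without HS replicate 3. Between 22 and 27 °C none was called in either line, beside 1.09% and 0.805% of all probes in HT and 1.26% and 0.949% in HS. Unadjusted, 1 of the 8 in HT and 4 in HS had a p under 0.05 with limma. The methods' t-test gave 1 and 3 unadjusted and 0 adjusted, where adjusted it called 0 of all probes too.

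The biosynthesis probes, for the allene oxide cyclase AOC4 and the reductase OPR2, were lower at the higher temperature. Between 27 and 15 °C the AOC4 probe had an HT difference of -0.31 and an HS difference of -0.81 (SE 0.10 each). The OPR2 probe had -1.12 in HT, and its HS value was -0.56 (SE 0.16 each). At 15 °C the OPR2 probe was 0.87 higher in HT than in HS, and the AOC4 probe had a difference of -0.38. The OPR2 probe ran against the first pair of LOX2 probes, with r of -0.914 to A_46_P040601 and -0.904 to A_46_P229914. All of these probes came from modules built on the same arrays.

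Among the signalling genes, the probe of the receptor COI1 was 0.41 higher at 27 than at 15 °C in HT, and the HS difference was 0.19 (SE 0.11 each). The probe of the repressor JAZ2, from the same list of probes higher in HT as A_46_P235329, was 0.90 higher in HT than in HS at 22 °C and 1.02 higher at 27 °C (SE 0.24 each). At 27 °C it was 1.03 higher than at 15 °C in HT, and the HS difference was 0.69. Its r with A_46_P235329 was 0.875 over all arrays, the highest of the 8 probes, and 0.765 and 0.795 within HT and HS. Within the lines other probes of the 8 came closer: COI1 had 0.884 within HT, and the BBE16 probe A_46_P062136 had 0.835 within HT and 0.896 within HS. The probe of the repressor JAZ3 had a difference between 27 and 15 °C of -0.52 in HT and of -0.58 in HS (SE 0.19 each).

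The probe of MES10, a methyl esterase, also came from the list of probes higher in HT, and was 1.03 higher in HT than in HS at 22 °C and 1.06 higher at 27 °C (SE 0.27 each). It ran against A_46_P226369 with r of -0.905. Both probes of BBE16, a berberine bridge enzyme-like protein, were higher at 27 than at 15 °C, by 1.75 and 1.90 in HT and by 2.55 in each case in HS (SE 0.35 and 0.31). At 27 °C their HT minus HS differences were 0.00 and 0.11.

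**Figure D5:**
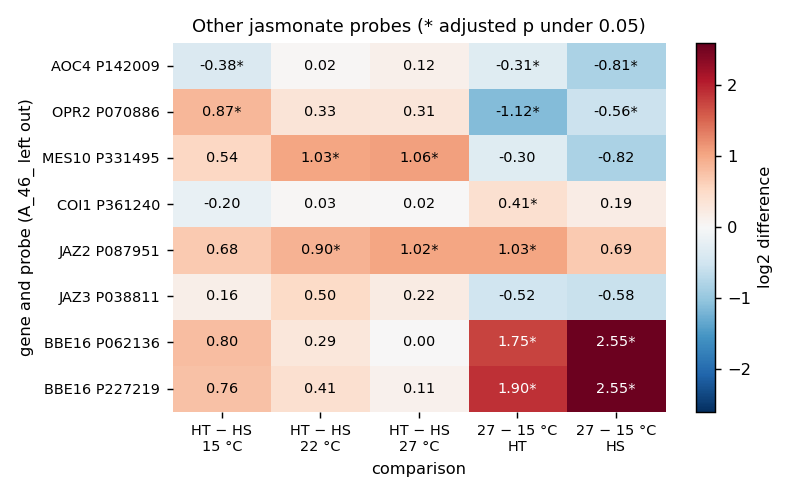
Log2 difference (colour and printed value) of the 8 probes of other jasmonate genes (rows) in 5 comparisons (columns). An asterisk marks an adjusted p under 0.05 with limma. The study had selected these probes on these same arrays, so the asterisks are no independent evidence. The largest values are those of the 2 BBE16 probes between 27 and 15 °C in HS, 2.55 each.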

How the data were processed

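Intensity values were deposited by the authors as scanner output of 18 Agilent 1-colour arrays, background-corrected by Feature Extraction 10.7.1.1 per the file headers and not normalized between arrays. A second table of log2 values deposited by the authors, shifted by each array's 75th percentile and set to a probe median of 0, served as an alternative. Control spots and outlier spots were left out, and log2 intensities of 43603 probes were quantile-normalized, because the methods name RMA. A mean for each of the 6 groups was fitted with limma 3.58.1 (R 4.3.3, 12 residual degrees of freedom), with two-sided tests and Benjamini-Hochberg adjustment over all probes within each comparison. SEs come from this fit. Correlations used Python 3.11.15, numpy 2.4.6 and pandas 2.3.3.

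Annotation came from copies of the study's tables with 231 and 2154 entries left out. None of the 40632 target names was found in the reference gene table. The LOX2 probes and the gene lists were chosen with earlier results of these data known. Named probes are the LOX2 probes, every matched jasmonate probe, and for each LOX2 probe the 5 nearest and 3 most opposite probes, with the 3 best ranked that have a name where fewer than 3 of the 5 had one. Alternative settings were normexp, the 75th percentile shift, the deposited log2 values, replicate number or slide as a block, probes above background, only the arrays compared, the methods' t-test, Spearman's rho, no background filter, deviations from group means, only the arrays at 22 and 27 °C, and leaving out each array. The fit and the ranking were tested on simulated data.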

Additional observations from a re-analysis of the deposited data

How the results depend on the processing

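Precision is limited by the 3 arrays of a group and, for dim probes, by the signal over background. Of 822 alternative values of 36 differences of LOX2 probes, 820 kept their sign, and the exceptions were the differences near 0 at 27 °C. Many of these alternatives could not change a difference. Leaving out an array of a group not compared, or adding a replicate block, returns the same value. The count is therefore no measure of how stable the differences are. With the 75th percentile shift the median difference of all probes in HT was 0.107 for 22 against 15 °C and 0.116 for 27 against 15 °C. With quantile normalization these medians were 0.018 and 0.011. No direction given for a LOX2 probe flipped with the shift. With normexp, whose offset raises dim spots, A_46_P040601 gave -1.93 for HT minus HS at 15 °C, and within HT 1.45 for 22 minus 15 °C and 2.22 for 27 minus 15 °C.

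A_46_P235329 from 15 to 27 °C in HS was 0.91 with normexp, 0.80 with the 75th percentile shift and the deposited values, and 0.71 to 1.20 without single arrays. It was 0.92 with a replicate block, over probes above background, with only the arrays compared and with the methods' t-test. None of these 0.92 settings can change the difference. With slide as a random block it was 0.91, but no block can separate this step from the change of slide. Samples of one replicate number did not all deviate together (correlations -0.04 to 0.19), although 11 of 12 arrays at 22 and 27 °C correlated best with their own number. The step from 22 to 27 °C was 0.42 within slides over both lines. With limma and a replicate block it was not called in HT (adjusted p = 0.447) or in HS (adjusted p = 0.377). These p-values too are not independent of the choice of the probe.

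The r of A_46_P040601 and A_46_P229914 was 0.975 with normexp and 0.985 to 0.995 without single arrays. With only the 12 arrays at 22 and 27 °C it was 0.895, that of A_46_P226369 with these probes 0.566 and 0.528, and with A_46_P235329 -0.24.

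Counts of probes at r of 0.9 or more with A_46_P040601 were 6 with the 75th percentile shift and the deposited values, 5 with normexp, 1 by Spearman's rho, 0 for deviations and 0 to 8 without single arrays. With A_46_P229914 they were 2 with the shift, normexp and the deposited values, 1 by rho, 0 for deviations, 1 with only 22 and 27 °C and 0 to 13 without single arrays. With A_46_P226369 they were 133 by rho, 126 with only 22 and 27 °C and 41 to 153 without single arrays. With A_46_P235329 they were 224 with only 22 and 27 °C and 50 to 128 without single arrays.

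Of the 8 other jasmonate probes, the methods' t-test adjusted called 0 between the lines at each temperature. Of all probes it called 5851, 5085 and 4945 at 15, 22 and 27 °C. For 27 against 15 °C it called 1 of the 8 in HT and 0 in HS, beside 3809 and 1287 of all probes. Unadjusted it called 1 for 27 against 22 °C in HT and 3 in HS, with no share over all probes at hand. Over probes above background 7 were called for 27 against 15 °C in HS, where 7657 of all 29659 such probes were called. With only the arrays compared 1 was called between the lines at 22 °C, beside 6694 of 43603 probes. With normexp 1 was called for 27 against 22 °C in HS, beside 1055 of 43603 probes. Without single arrays the counts between the lines were 1 to 4 at 15 °C, 0 to 3 at 22 °C and 1 to 2 at 27 °C. Calls among all probes moved with the setting too, and nothing is read from these counts.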
